A study of Populus ussuriensis with 18 samples.

Results

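Of the 12994 transcripts measured in *Populus ussuriensis* roots, 48 were lowered after 6 h under PEG-induced drought stress and were back near their starting level from 12 h on. These 48 members were picked by their values. The rule took transcripts of at least 400 bases with an FPKM of at least 1 in at least 3 libraries, which 11404 transcripts met. FPKM is the number of fragments per kilobase of transcript, scaled by all mapped fragments of the library. On the log2(FPKM + 1) scale, the mean at 6 h had to lie at least 1 below the mean at 0 h, and the means at 12, 24, 48 and 120 h had to lie within 0.5 of it. The means at all 6 times therefore chose the members, so every difference between times is given below for the members as a description, with no test.

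A drop in the water potential of the medium draws water out of root cells within minutes and is followed by fast changes in transcription. Some of these changes last only until the cells have adjusted their solutes and growth, so that a transcript may be low for hours and then return. PEG 6000 is a polymer that binds water in the medium without entering the cells in large amounts, which makes water harder to take up.

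The roots came from wild type seedlings in tissue culture, 3 weeks old, moved into a liquid medium with 6% PEG 6000 and collected after 0, 6, 12, 24, 48 or 120 h. There were 3 replicate samples at each of the 6 times, each a pool of several seedlings, and the 18 libraries were sequenced as paired ends and mapped to full-length transcripts read from the same samples by PacBio sequencing. The seedlings at 0 h were the only control. No seedlings were held in a PEG-free liquid, so that PEG, the move into liquid and the hours since the move cannot be told apart. In bulk roots, fewer cells of a type and less RNA per cell cannot be told apart either.

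Summed FPKM was between 1067370 and 1159870 per library, and between 865 and 1016 transcripts were listed at 0. The spacing of low FPKM values gave a rough depth of 14500000 to 20600000 mapped fragments per library, which entered no test. At that depth, taking for each member the 6 h library in which it had the fewest fragments, the median over members was about 386 fragments. Counting error was large for 3 members with fewer than 20 fragments in a 6 h library, among them the CONSTANS-LIKE 6 homologous gene. The root label was met by all 9 transcripts of a root marker list, which covers nitrate and ammonium uptake, suberin and root hairs and summed to 1645 ± 34.6 FPKM at 0 h (SD, n = 3). Transcripts of photosystem and thylakoid proteins, the markers of green tissue, were present as well, with all 22 of the list detected.

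At 6 h the rule cut the 48 members off at its threshold, and most of the members lay close to it. Their median difference from 0 h was -1.13, and 34 of them lay within 0.25 of the threshold, while only 4 lay below -1.5. In linear terms, mean FPKM at 6 h was 17.1 to 49.7% of that at 0 h, with a median of 43.4%. Every 6 h library was below every 0 h library in all 48 members, against a background of 35.2% of the 11404 transcripts, and this contrast was used by the rule. In 47 members, the 6 h libraries were also below all 15 other libraries (background 12.2%, again partly fixed by the rule). The exception was f2p39_810_12931, which was at 7.35, 13.7 and 5.51 FPKM at 6 h and at 6.81 FPKM in replicate 1 of 12 h.

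The median over members rose from each time to the next after 6 h, within limits that the rule set. Single members could differ, such as f2p60_1250_8880, with means of 21.1 FPKM at 12 h and 16.9 FPKM at 24 h. At 12 h the members stood at a median of 80.0% of their FPKM at 0 h, at 24 h at 92.1%, at 48 h at 99.9% and at 120 h at 103.5%. On the log2 scale these medians were -0.32, -0.12, -0.02 and 0.04. At 12 h, 44 of 48 members were below their 0 h mean, and at 120 h 23 were. Of the members, 16 remained below 0 h at all 4 later times and 3 were above it at all 4, namely f2p60_882_31413, f3p60_556_35830 and f2p19_658_14419. Over all 11404 transcripts the median difference from 0 h was between -0.05 and 0.01 at each time.

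**Figure D1:**
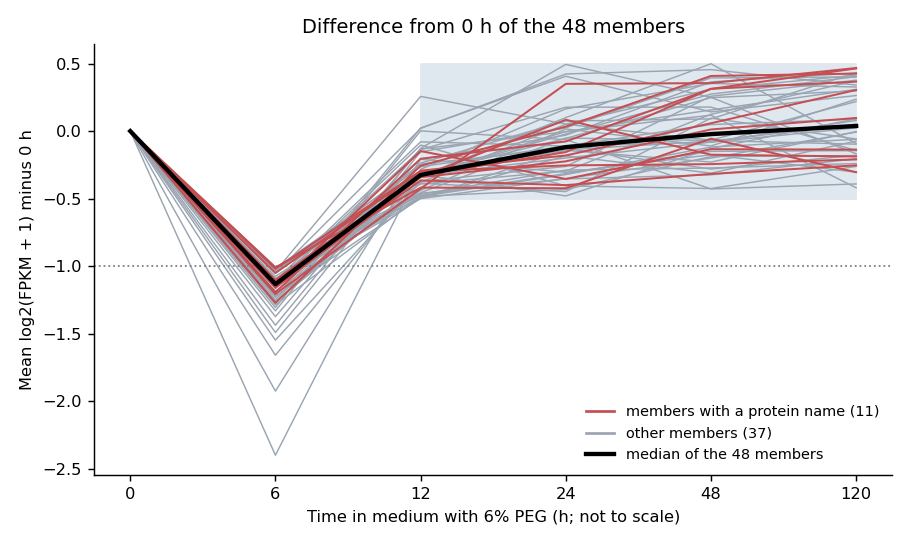
Difference in mean log2(FPKM + 1) from 0 h (vertical axis) against time in PEG (horizontal axis, not to scale) for the 48 members, each mean over 3 libraries. Red lines are the 11 members with a protein name, grey lines the other 37 and the black line the median, which was -1.13 at 6 h and -0.32 at 12 h; the shaded band and the dotted line are the limits of the rule.

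A return by 12 h was the less common course. By the same scale, 627 transcripts (5.5% of the 11404) were lowered by 1 or more at 6 h. Of these, 120 (19.1%) were within 0.5 of 0 h at 12 h, 308 at 24 h, 327 at 48 h and 316 at 120 h, and 48 (7.66%) at all 4 times. The 579 that were not members had a median difference of -0.97 at 12 h and -0.53 at 24 h. The mirrored rule, for transcripts raised at 6 h only, took 70 of the 812 that were higher by 1 or more at 6 h. The members had a median of 100.5 FPKM at 0 h, against 33.4 for all 11404 transcripts, and a median length of 979 bases against 1394. The 579 other lowered transcripts lay in between, with medians of 75.2 FPKM and 1194 bases.

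Annotation was at hand for 16 members, of which 11 carried a protein name, and 5 had only a poplar locus. The other 32 had no annotation line in the sources used here and are given by their transcript ID. The 11 named members are described first, by role.

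The first 3 named members encode homologous subunits of the photosystems, the thylakoid complexes that capture light. PsbX, a small subunit of photosystem II, was represented by 2 members of the same poplar locus. The longer one, f2p60_746_33239, was at 286, 285 and 285 FPKM at 0 h and at 131, 107 and 116 FPKM at 6 h. It was at 233, 245 and 239.5 FPKM at 12 h, at 248, 340.0 and 296 FPKM at 24 h, at 335, 372 and 437 FPKM at 48 h and at 426, 383 and 347 FPKM at 120 h. The 6 h libraries were lowest, those of 12 h lay below all of 0 h, and those of 48 and 120 h lay above all of 0 h. Its difference from 0 h was -1.27 at 6 h and 0.43 at 120 h. The other PsbX transcript, f5p60_732_13875, had a similar course, with a mean of 243 ± 9.34 FPKM at 0 h, 106 ± 6.07 FPKM at 6 h and 336 ± 22.4 FPKM at 120 h (SD, n = 3). At 24 h its mean was below that of 0 h, at 232 ± 31.7 FPKM, whereas the mean of the longer one was above it, at 295 ± 45.8 FPKM.

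Subunit III of photosystem I (PsaF, f8p60_998_11128), which docks the electron carrier plastocyanin, had a similar course at a lower level. It was at 86.2, 93.9 and 96.0 FPKM at 0 h, at 51.5, 38.8 and 37.8 FPKM at 6 h and at 78.4, 66.6 and 74.8 FPKM at 12 h. At 24 h it was at 82.1, 88.45 and 77.1 FPKM, at 48 h at 107, 105 and 133 FPKM and at 120 h at 138, 109.8 and 110.3 FPKM. The groups at 6 h and 0 h did not overlap, and the 48 and 120 h libraries were all above those of 0 h. Of the 22 transcripts in the photosystem and thylakoid list, 11 were lowered by 1 or more at 6 h, against 5.5% of all 11404 transcripts, and none was raised. The list came largely from tables of transcripts called as changed in these samples. Its median was -1.002 at 6 h, -0.35 at 12 h, 0.05 at 24 h and 0.70 at 120 h. At 120 h, 14 of the 22 were more than 0.5 above 0 h, outside the band that the rule allowed.

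A detoxifying enzyme and a cell wall enzyme held the highest levels among the named members. Glutathione S-transferase (GST) F11, f3p60_1160_28302, belongs to a family that joins glutathione to reactive compounds. It was at 800.0, 789 and 794 FPKM at 0 h and at 342, 339.8 and 349 FPKM at 6 h. Its later values were 608, 569 and 596 FPKM at 12 h, 982.5, 1017 and 1039 FPKM at 24 h, 942, 952 and 1171 FPKM at 48 h and 1322, 1015 and 988 FPKM at 120 h. The transcript passed from the lowest group at 6 h to libraries that were all above 0 h from 24 h on. The other GST transcripts mostly went the other way at 6 h: of the 20 in the list, 13 were higher than at 0 h by 1 or more and 2 were lower, with a median difference of 1.28.

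Peroxidase 42, f7p60_1490_25269, is a class III peroxidase, a family of secreted enzymes that oxidise phenolic compounds with hydrogen peroxide. It had the highest level of all members, at 1097, 1136 and 1119.8 FPKM at 0 h and 544, 546 and 575 FPKM at 6 h. It was at 829.6, 832 and 847 FPKM at 12 h, at 781, 874 and 848 FPKM at 24 h, at 944, 956 and 1377 FPKM at 48 h and at 1094, 819 and 827 FPKM at 120 h. The 12 and 24 h libraries stayed below those of 0 h, and replicate 3 of 48 h was above every other library. Of the 28 class III peroxidase transcripts listed, 9 were lower by 1 or more at 6 h and 1 was higher. The median was -0.70 over the 27 that the rule could take. That list is drawn largely from tables of differentially expressed transcripts of these samples, as are the GST and the other lists below.

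Metabolic enzymes made up the next group. Allantoinase (f2p60_1867_22642), which opens the ring of allantoin in the breakdown of purines, was at 14.5, 12.3 and 14.9 FPKM at 0 h and at 5.55, 5.71 and 5.64 FPKM at 6 h. All 12 later libraries lay between 10.3 and 16.1 FPKM. Aldehyde dehydrogenase 2C4 (ALDH2C4, f2p14_1902_4696), whose homologue in Arabidopsis oxidises coniferaldehyde and sinapaldehyde to ferulic and sinapic acid, was at 104, 95.9 and 90.1 FPKM at 0 h and at 44.6, 47.0 and 49.65 FPKM at 6 h. Its later libraries ranged from 72.7 to 130.1 FPKM, with all 3 of 120 h above those of 0 h. 7-Dehydrocholesterol reductase (f2p60_1644_6299), which acts late in sterol synthesis on the way to the brassinosteroids in Arabidopsis, was at 24.7, 24.3 and 25.8 FPKM at 0 h and at 12.05, 10.9 and 11.6 FPKM at 6 h. It stayed slightly low afterwards, with all 12 later libraries between 18.8 and 23.5 FPKM and none reaching those of 0 h. In the phenylpropanoid list that holds aldehyde dehydrogenase 2C4, 17 of 22 transcripts were higher by 1 or more at 6 h and 2 were lower.

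The last named members are a transcription factor, a subunit of a ubiquitin ligase and a DnaJ protein. CONSTANS-LIKE 6 (f3p60_1878_4842) is a zinc finger protein of the B-box type, a group that includes regulators of light and day-length responses. It was scarce, at 2.26, 2.20 and 2.64 FPKM at 0 h and at 0.58, 0.53 and 0.47 FPKM at 6 h, which corresponds to about 19, 12 and 11 fragments at 6 h. All 12 later libraries were between 1.18 and 2.59 FPKM, and all 4 later means were below that of 0 h. In the list of clock and B-box factors, 6 of 12 transcripts were lower by 1 or more at 6 h. Among them were both transcripts of LHY, a morning factor of the plant clock, where 1 transcript differed from 0 h by -2.65 at 6 h, -2.24 at 12 h and 0.49 at 24 h, and the other by -2.15, -1.85 and 0.64 at those times. The protocol describes the harvest as simultaneous, and it is not clear whether all libraries share an hour of day. The part of the hour of collection in the members' values was not tested.

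Subunit 13 of the anaphase-promoting complex (APC13, f2p60_572_35618), which marks cell cycle proteins for breakdown, was at 32.2, 33.2 and 38.25 FPKM at 0 h and at 18.3, 12.55 and 14.4 FPKM at 6 h. The later libraries ranged from 21.8 to 36.5 FPKM and overlapped those of 0 h at 12 and 48 h. The DnaJ family holds co-chaperones of heat shock proteins. The transcript named after DnaJ subfamily B member 13 (f2p60_736_334021) was annotated with a DnaJ C-terminal domain. It was at 120.35, 119 and 146 FPKM at 0 h and at 59.1, 53.1 and 64.4 FPKM at 6 h. Later libraries ranged from 95.9 to 156 FPKM. Among the 33 heat shock and DnaJ transcripts listed, 25 were higher by 1 or more at 6 h and 2 were lower, so that this member went against most of its list.

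**Figure D2:**
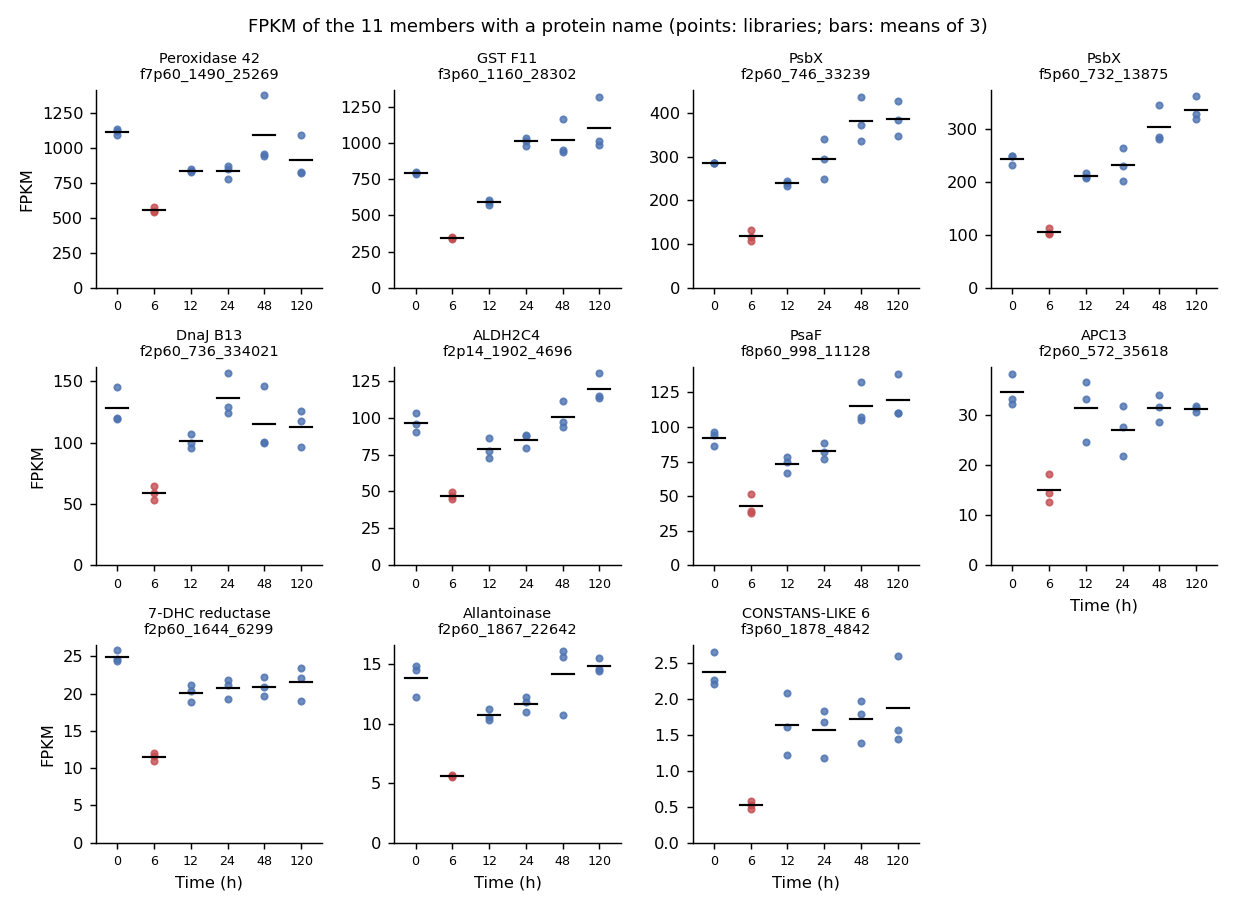
FPKM (vertical axes, from 0, scaled per panel) against time in PEG (h, horizontal axes) for the 11 members with a protein name; points are libraries, black bars means of 3 and red points the 6 h libraries. In each panel the 6 h libraries are the lowest, from 544 to 575 FPKM for peroxidase 42 down to 0.47 to 0.58 FPKM for CONSTANS-LIKE 6.

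The 10 largest falls belonged to transcripts without a protein name. The largest, f2p60_514_36322, was at 73.2, 64.8 and 58.7 FPKM at 0 h and at 12.7, 9.75 and 12.5 FPKM at 6 h, a difference of -2.40. It was at 61.3, 40.98 and 60.9 FPKM at 12 h, at 83.6, 50.9 and 92.5 FPKM at 24 h, at 74.1, 76.5 and 103 FPKM at 48 h and at 68.4, 96.25 and 84.1 FPKM at 120 h. No other library came near those of 6 h, and replicate 2 was the lowest at both 12 and 24 h. In linear terms the order differs, since the added 1 shrinks falls of scarce transcripts. On few fragments, CONSTANS-LIKE 6 was at 22.3% of its 0 h FPKM at 6 h. Only f2p41_761_33084 (17.1%) and f2p60_514_36322 (17.8%) were at a lower share.

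The next falls were less deep. f2p60_585_356652 was at 67.2, 68.3 and 60.1 FPKM at 0 h and at 19.15, 16.9 and 13.7 FPKM at 6 h, a difference of -1.92. f2p41_761_33084, with a difference of -1.66, was at only 3.44, 4.62 and 4.07 FPKM at 0 h and at 1.42 and 0.66 FPKM in replicates 1 and 2 of 6 h, and was listed at 0 in replicate 3. With about 13 and 4 fragments in those libraries, its depth of fall was poorly determined. f3p60_1042_29583 (-1.55) went from 58.85, 58.4 and 62.7 FPKM to 19.8, 20.35 and 19.4 FPKM, and f14p60_621_15218 (-1.49) from 429, 424 and 426 FPKM to 153, 144 and 156 FPKM. In both, the replicates of 0 and 6 h differed from each other by little beside the gap between the times. The other 5 of these 10 were f2p60_1641_6352 (-1.44), f3p60_853_31778 (-1.37), f2p60_739_33287 (-1.33), f2p60_882_31413 (-1.31) and f6p60_692_13900 (-1.29).

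The 5 members with the highest level at 0 h were peroxidase 42, GST F11, f2p19_658_14419, f3p53_887_11910 and f6p60_692_13900. f2p19_658_14419 was at 638, 655 and 638 FPKM at 0 h and at 330, 299 and 312 FPKM at 6 h, and it was the member with the highest difference at 12 h, 0.26, when its libraries were at 760.4, 784 and 765 FPKM. It was the one member of the 5 whose 12 h libraries were all above 0 h. f6p60_692_13900 was at 570, 596 and 596 FPKM at 0 h, at 255, 226 and 240.1 FPKM at 6 h and at 377, 459.9 and 427 FPKM at 12 h. At the other end, 3 members had a mean under 10 FPKM at 0 h. They were CONSTANS-LIKE 6, f2p41_761_33084 and f3p60_556_35830, the same 3 whose 6 h libraries held fewer than 20 fragments.

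Values near the threshold are close on both sides. The 3 members just inside it were f3p53_887_11910, peroxidase 42 and f3p60_486_36644, with differences of -1.006, -1.009 and -1.01 at 6 h. The 3 transcripts just outside that met the rest of the rule were f2p60_3065_1596 and f2p60_1112_10181, both at -0.988, and f3p60_5790_17761 at -0.983. For the band at later times, the members nearest the limit reached 0.498, 0.499 and 0.49996, and the nearest transcripts left out reached 0.505, 0.506 and 0.510.

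Several members had sister transcripts of the same poplar locus in the table. Such transcripts share sequence, and reads that fit several of them were divided by the authors' quantification, so the split between sisters is uncertain. For peroxidase 42, f2p60_1347_26489 was at 1710 ± 9.72 FPKM at 0 h and 846 ± 20.2 FPKM at 6 h (SD, n = 3), a difference of -1.01, and was left out because it was still at -0.74 at 12 h. Another transcript of that locus, of 345 bases, was too short for the rule and differed by -0.99. For photosystem I subunit III, the more abundant f2p60_1013_29924 was at -1.22 at 6 h and missed the band by little, with -0.51 at 12 h.

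Sisters were less alike at the allantoinase locus, the DnaJ locus and that of the largest fall. The 4 allantoinase transcripts differed by -1.16 (the member), -0.99, -0.52 and -0.52 from 0 h at 6 h. f5p60_642_34624, from the locus of the largest fall f2p60_514_36322, was at 271 ± 24.8 FPKM at 0 h and 129 ± 9.25 FPKM at 6 h (SD, n = 3), a difference of -1.07 against -2.40 for the member. At 12 h it was still at -0.71. The sister of the DnaJ transcript, of 364 bases, was at -1.45 at 6 h and at -0.78 at 120 h, with 0 h libraries that ranged from 8.97 to 25.15 FPKM. Among the 16 members with a known locus, the PsbX locus was the only one with 2 members, and these count as 1 gene. Whether any of the 32 members without an annotation line share a gene could not be seen.

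**Figure D3:**
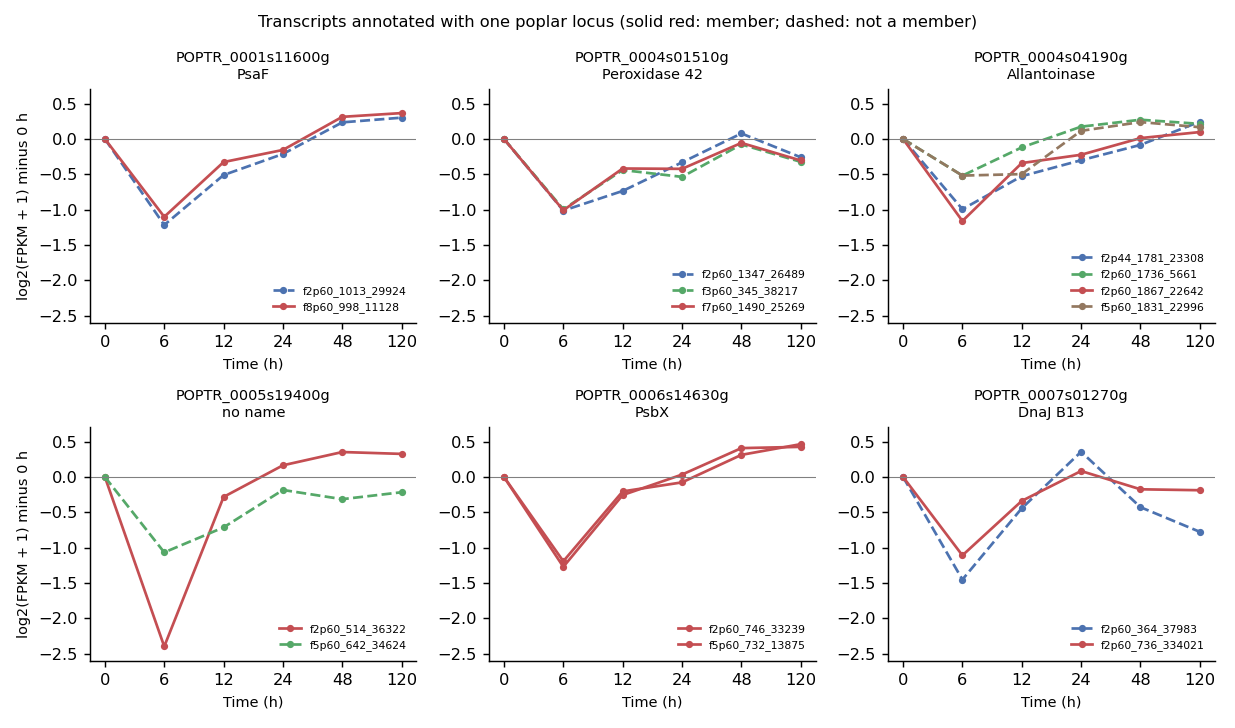
Difference in mean log2(FPKM + 1) from 0 h (vertical axes) against time in PEG (h, horizontal axes) for transcripts of 6 poplar loci, each mean over 3 libraries; solid red lines are members and dashed lines transcripts that the rule left out. At 6 h the allantoinase transcripts lie between -1.16 and -0.52, and the 2 PsbX lines at -1.27 and -1.19.

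The levels after the return were followed by 2 differences that leave out the 0 and 6 h libraries. The first was 12 h against the mean of 24, 48 and 120 h. The rule bounded the means of these times and took transcripts that were low at 6 h, so both the size and the direction of the members' differences depend on how they were chosen. limma on log2(FPKM + 1), fitted to 12080 transcripts with p adjusted by Benjamini-Hochberg, served here to sort the members at an adjusted p of 0.05 and not to test them. By this threshold 25 of 48 members (52.1%) were lower at 12 h than later, 1 (2.08%) was higher and 22 were past neither side. The background over all transcripts was 25.4% lower and 23% higher, and nothing is read from the distance to it. The median difference of the members was -0.30, and 44 of 48 were below 0.

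GST F11 had the largest difference, at -0.82 ± 0.08 (SE), with all 3 libraries of 12 h below all 9 later ones. It was followed by f2p60_514_36322 (-0.56 ± 0.18), f2p60_808_32402 (-0.55 ± 0.08), PsbX f2p60_746_33239 (-0.55 ± 0.09) and photosystem I subunit III (-0.50 ± 0.10). f2p60_808_32402 has no annotation and was at 282, 278 and 283 FPKM at 12 h and between 309 and 519 FPKM later. The other PsbX transcript (-0.44), allantoinase (-0.30) and aldehyde dehydrogenase 2C4 (-0.35) were also past the threshold on the lower side. f2p60_514_36322 no longer was without replicate 2 of 12 h (-0.38), its lowest library at that time, nor was allantoinase without replicate 1 (-0.28) or replicate 3 of 12 h (-0.29).

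Differences were smaller for the other named members, at -0.16 ± 0.10 for peroxidase 42, -0.06 ± 0.06 for 7-dehydrocholesterol reductase, 0.06 ± 0.13 for subunit 13 of the anaphase-promoting complex, -0.04 ± 0.16 for CONSTANS-LIKE 6 and -0.25 ± 0.12 for the DnaJ transcript (SE). The 1 member past the threshold on the higher side was f2p60_1250_8880, at 22.2, 18.3 and 22.95 FPKM at 12 h and between 15.7 and 21.3 FPKM later (0.26 ± 0.09). It was no longer past it without replicate 1 of 12 h (0.22) or replicate 3 of 12 h (0.20).

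The second difference was 120 h against 24 h, whose means the rule also bounded. By the same sorting, 16 members (33.3%) were higher at 120 h and 3 (6.25%) were lower, with 29 past neither side. The background was 15.1% higher and 19.4% lower, and again nothing is read from it. The largest difference was that of f2p60_1027_29805, from 88.1, 102 and 92.7 FPKM at 24 h to 185, 136 and 135 FPKM at 120 h (0.67 ± 0.11). f3p60_1042_29583 was higher by 0.64 ± 0.19, f3p60_1375_26445 by 0.57 ± 0.11, PsbX f5p60_732_13875 by 0.54 ± 0.09 and photosystem I subunit III by 0.52 ± 0.12 (SE). f3p60_1042_29583, at 116 FPKM in replicate 1 of 120 h and at 60.7 and 67.4 FPKM in the others, was no longer past the threshold without that library (0.35) or without replicate 1 of 24 h (0.59).

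Aldehyde dehydrogenase 2C4 was higher at 120 h than at 24 h by 0.48 ± 0.08 and the other PsbX transcript by 0.39 ± 0.11. The latter was within the threshold without replicate 1 of 24 h (0.28) or replicate 1 of 120 h (0.32). Allantoinase, at 0.32 ± 0.12, was close to the threshold and was within it in 12 of the 18 fits that left out a library. Without replicate 1 of 24 h, 14 members in place of 19 were past the threshold. The 3 members that were lower at 120 h than at 24 h were f2p60_1641_6352 (-0.66 ± 0.09), f3p60_853_31778 (-0.42 ± 0.14) and f2p60_1541_7163 (-0.32 ± 0.06). f2p60_1641_6352 was at 36.95, 41.5 and 42.9 FPKM at 24 h, above all its 0 h libraries of 27.0 to 29.9 FPKM, and at 28.6, 22.5 and 24.7 FPKM at 120 h. f3p60_853_31778 was within the threshold in 4 of the 18 fits that left out a library, and when libraries were centred on the median transcript (-0.36).

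**Figure D4:**
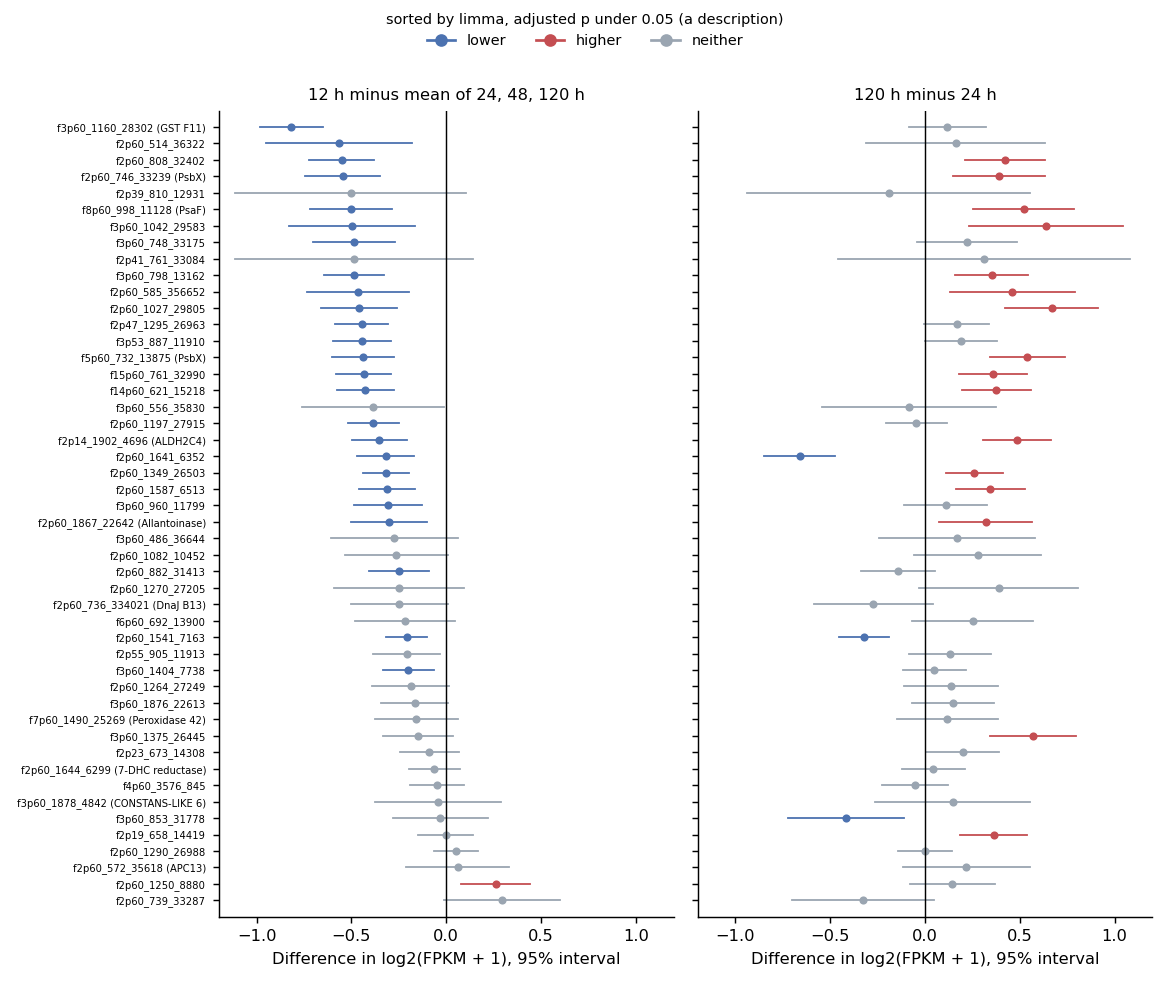
Difference in log2(FPKM + 1) (horizontal axes) with its 95% interval by limma for each of the 48 members (rows, in the same order in both panels), for 12 h minus the mean of 24, 48 and 120 h (left) and 120 h minus 24 h (right); blue is lower and red higher by the limma threshold that sorts the members, and grey is past neither side. On the left 25 members are lower and 1 is higher, and on the right 16 are higher and 3 are lower.

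Read together, the 2 differences sort the 48 members into courses. They share the 24 and 120 h libraries. There were 14 members lower at 12 h than later and higher at 120 h than at 24 h, among them both PsbX transcripts, photosystem I subunit III, allantoinase, aldehyde dehydrogenase 2C4 and f14p60_621_15218. Another 9, GST F11 and f2p60_514_36322 among them, were lower at 12 h and past neither side between 24 and 120 h. There were 2 members, f2p60_1641_6352 and f2p60_1541_7163, that were lower at 12 h than later and lower at 120 h than at 24 h, with their highest or near highest values at 24 h. By neither difference were 19 members sorted to a side, which include peroxidase 42, CONSTANS-LIKE 6, 7-dehydrocholesterol reductase, subunit 13 of the anaphase-promoting complex and the DnaJ transcript. The remaining 4 members were past the threshold in 1 difference only: f3p60_1375_26445 and f2p19_658_14419 were higher at 120 h than at 24 h, f3p60_853_31778 was lower, and f2p60_1250_8880 was higher at 12 h than later.

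In the same fit, the other transcripts of the members' lists went in part with them and in part against them. Over all transcripts, 25.4% were lower and 23% higher at 12 h than later. At 120 h, 15.1% were higher and 19.4% lower than at 24 h. The lists came largely from tables of transcripts called as changed in these samples, so nothing is read from the distance to these shares. Of the 19 photosystem and thylakoid transcripts that were not members, 14 were lower at 12 h than later and 13 were higher at 120 h than at 24 h, and none was past the limma threshold in the other direction. Of the other 19 GST transcripts, none was lower and 12 were higher at 12 h than later, the opposite of GST F11. The other 21 phenylpropanoid transcripts also differed from aldehyde dehydrogenase 2C4, with 17 higher at 12 h than later and 17 lower at 120 h than at 24 h. Among the 27 other class III peroxidases, 9 were lower and 14 were higher at 12 h than later. Of the other 4 ureide transcripts, 3 were lower at 12 h than later. All but the ureidoglycolate hydrolase transcript are sisters of the allantoinase member at the same locus, between which the split of reads is uncertain. Of the other 11 clock and B-box transcripts, 8 were lower at 12 h than later. Of the other 32 heat shock and DnaJ transcripts, 22 were higher at 12 h than later and 2 were lower.

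Summed over the 48 members, FPKM was 9163 ± 63.8 at 0 h, 4072 ± 115 at 6 h, 7432 ± 71.5 at 12 h, 8588 ± 671 at 24 h, 9732 ± 1133 at 48 h and 10081 ± 296 at 120 h (SD, n = 3). The sum at 48 h rested on replicate 3, with 11037 FPKM against 9006 and 9153 FPKM in the others, a library that also had the lowest median correlation with its own time, 0.961. The marker lists moved as well. The photosystem transcripts that were not members summed to 2256 to 2369 FPKM at 0 h, 1036 to 1137 FPKM at 6 h, 1663 to 1725 FPKM at 12 h and 3432 to 4555 FPKM at 120 h. The root markers summed to 1620 to 1685 FPKM at 0 h, 586 to 604 FPKM at 6 h and 584 to 599 FPKM at 12 h. They summed to 622 to 645 FPKM at 24 h, 1097 to 1123 FPKM at 48 h and 1324 to 1792 FPKM at 120 h. Nitrate and ammonium transporters held most of the 0 h sum, and each of them was lower by 1 or more at 12 h. The other root markers were not, and CPC of root hairs was at 188 FPKM at 12 h against 102 FPKM at 0 h. For suberin, CYP86A1 was at 77.1 against 66.3 FPKM and CYP86B1 at 26.0 against 31.9 FPKM. At 120 h CPC was at 209 FPKM, CYP86A1 at 35.0 FPKM and CYP86B1 at 10.5 FPKM, so these markers did not follow the sum. None of the markers of either list was at 0 in every library, and none of the 9 root markers was a member. Of the 8 root markers that the rule could take, 5 were lower by 1 or more at 6 h. The remaining root marker, an ammonium transporter transcript of 245 bases, was lower by more than 1 as well (-2.81). The part of a change in tissue makeup in the members' values was not tested.

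**Figure D5:**
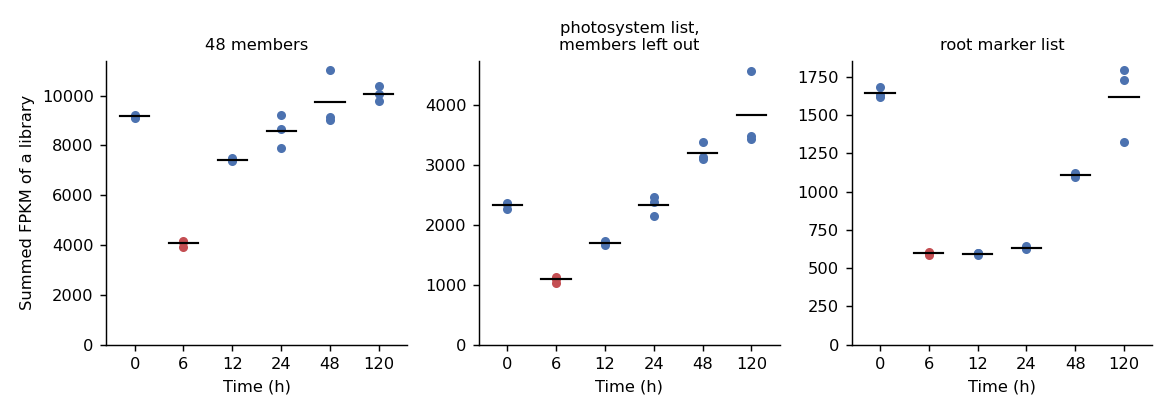
Summed FPKM of each library (vertical axes, from 0) against time in PEG (h, horizontal axes) for the 48 members, the photosystem list without members and the root marker list; points are libraries, red at 6 h, and black bars means of 3. The members' sum is 4072 FPKM at 6 h and 7432 FPKM at 12 h. The root marker sum, at 0 h mostly nitrate and ammonium transporters, stays between 584 and 645 FPKM from 6 to 24 h.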

How the data were processed

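Root RNA from 18 samples was sequenced as paired ends. The deposited values are FPKM per transcript, which the authors made by mapping clean reads to their PacBio transcripts and quantifying with RSEM (version 1.2.31 per the submitters' processing notes, where HTSeq 0.6.0 appears too). No genome build is involved. The table's columns carry codes for the control and the numbered treatments, which were read as the 6 times in their order, the final digit giving the replicate. For 5 of 5 times, the fold changes that the study printed for 548 transcripts lay nearest to the columns so read, and were used for nothing else. Replicates are pools of seedlings, so p-values measure the spread between these pools.

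FPKM was transformed as log2(FPKM + 1), on which scale changes of low transcripts are understated. limma 3.58.1 (R 4.3.3), with intensity trend and robust moderation, was fitted to all libraries and 12080 transcripts that reached 1 FPKM in 3 or more libraries, leaving 12 residual degrees of freedom, after it was tested on simulated data. The 2 contrasts use no 0 or 6 h library, but the rule bounds the means they compare, so limma's two-sided threshold (adjusted p under 0.05) sorts the members and is no test of them; this differs from the plan, which treated them as tests. Other steps used Python 3.11.15, pandas 2.3.3, numpy 2.4.6 and matplotlib 3.10.9. Fragment counts were not used. Depth was estimated from the spacing of FPKM values under 0.5 in transcripts of 600 to 1500 bases, and precision rests on replicate spread.

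Names come from supplementary annotation lines, which cover 1057 transcripts (8.13% of the table), 681 with a name; most describe transcripts chosen on these samples. The text names members with a protein name, the 10 largest falls, the 5 highest at 0 h, those nearest the threshold, up to 5 members past the threshold per direction and contrast, and members that share a locus. f2p39_810_12931, f3p60_556_35830, the LHY transcripts and the sister transcripts were named after their values were seen. The members and lists were chosen with earlier results of these data known. Alternatives were pseudocounts of 0.1 and 5, no filter, centring, other minimum lengths, a replicate block, limma without trend, and leaving out each library.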

Additional observations from a re-analysis of the deposited data

How the results depend on the processing

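The number of transcripts lowered at 6 h only, 48, was 56 with a pseudocount of 0.1 (43 of the 48 among them), 36 with 5 (31), 60 when libraries were centred on their median transcript (47), 53 with no minimum length, 48 with no filter on low values and 23 with a minimum length of 1000 bases, which drops the 25 shorter members. Leaving out 1 library at a time gave 43 to 51 transcripts, and 22 of the 48 were kept in all 18 such settings, so membership near the limits depends on single libraries. Members past the limma threshold at 12 h against the later times, 26, numbered 22 to 29 without 1 library and 26 under the other alternatives. Those past it at 120 h against 24 h, 19, numbered 14 to 20 without 1 library and 17 to 19 otherwise. No such difference changed sign. What these counts rest on is limited by 3 replicates per time, by FPKM in place of counts and by partial annotation.

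Replicate numbers are not stated to mark shared seedlings or days. Deviations of same-numbered libraries correlated at -0.13 to 0.10 (median -0.02), and 1 library of 18 correlated best with its own number, so the samples were not treated as pairs. With a replicate block, 26 and 17 members were past the threshold in the 2 contrasts.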
